A study of Mus musculus with 2 samples.

Results

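The transcripts described here are the well-expressed retained-intron transcripts of the young mouse hippocampus, that is, annotated RNAs in which sequence that other transcripts of the same gene remove as an intron is kept as exon. They were chosen by their biotype in the annotation and by their level: a retained_intron transcript was taken when it reached at least 1 TPM (a level per library total, corrected for transcript length) in both libraries and in both quantifications of each library. Of 21848 annotated retained_intron transcripts, 5326 met this rule (24.4%), out of 141767 annotated transcripts of all kinds. They came from 3261 genes, 3225 of which also had a protein_coding transcript. The levels in all 4 tables therefore chose these transcripts, and the levels given below are descriptions without a test.

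Total RNA was sequenced from hippocampus of female B6CASTF1/J mice, the F1 hybrids of C57BL/6J and CAST/EiJ, at 14 days of age. The series held 1 group of 2 libraries, called biological replicates 1 and 2, each made from 300 ng of RNA and each listing 3 females. The labels do not say how the 3 animals were combined. Both carried the same donor identifier, the source was labelled as a layer of the hippocampus without saying which, and no treatment was named. The spike-in label speaks of libraries reduced for ribosomal RNA. Annotated transcripts received 33301012 expected counts in replicate 1 and 32721958 in replicate 2. With 1 group there was no comparison of conditions, and the spread between the libraries may be technical in part. Marker genes of neurons (10 of 10), astrocytes (11 of 11) and oligodendrocytes (13 of 13) were at 1 TPM or more in both libraries. Genes of the choroid plexus, a tissue beside the hippocampus, summed to 1451 TPM over 11 genes in replicate 1 and to 10.2 in replicate 2. No gene of that list had a transcript among the 5326, and the part of this difference in what follows was not tested.

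Introns are normally cut from a precursor RNA by the spliceosome, which recognises a donor site at the 5′ end of the intron and an acceptor site at its 3′ end. A transcript that keeps an intron often holds a stop codon ahead of the normal one, and such RNA may be held in the nucleus or degraded by nonsense-mediated decay once it is translated. Genes for splicing factors are known for keeping introns in a regulated way, and neurons are known to store some intron-containing RNAs in the nucleus. In total RNA, precursors whose splicing was not yet finished cannot be told apart from finished RNA with a kept intron.

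Few of the most abundant of these transcripts carried a whole intron. A whole intron of another transcript of the gene lay inside 1 exon in 2045 of the 5326 (38.4%), against 30.4% of the 16522 retained_intron transcripts that did not reach the level. The other 3281 ended or began inside an intron, or held none: in 1658 an exon ran past a donor site only, in 1012 an exon began ahead of an acceptor site only, in 594 both were seen, and in 17 neither. The median transcript was 967 bases long and had 391 bases that no transcript of another biotype of its gene held as exon. These are called private bases here. Reads over them set a retained_intron transcript apart from the gene's transcripts of other biotypes, and reads over exon junctions were not examined. Private bases numbered under 100 in 608 transcripts (11.4%) and under 10 in 62. Among the 100 with the highest TPM, 21 held a whole intron, the median was 97.5 private bases (14.1% of the length), and 52 had under 100. In those only a short stretch lay outside the exons of other biotypes, and their level depends on how each quantification divided the reads of shared exons.

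Introns were read from the transcripts that held them whole. The introns of Rps20-201, Rps16-202 and Prelid1-202, the highest 3 by TPM with 1 whole intron between coding exons and no other gene on the strand, are printed whole, 5′ to 3′ (mm10, GENCODE M21). Capitals mark the first stop codon in the reading frame of the exon before the intron. They are shown for where reading in that frame would end.
Rps20-201: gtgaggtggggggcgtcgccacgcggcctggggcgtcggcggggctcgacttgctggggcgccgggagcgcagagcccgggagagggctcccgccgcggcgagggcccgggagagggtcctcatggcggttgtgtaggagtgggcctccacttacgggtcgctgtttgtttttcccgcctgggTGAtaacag
Rps16-202: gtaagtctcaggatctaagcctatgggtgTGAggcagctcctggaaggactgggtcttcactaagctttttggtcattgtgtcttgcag
Prelid1-202: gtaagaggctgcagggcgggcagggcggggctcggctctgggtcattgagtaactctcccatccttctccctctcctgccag

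The Rps20 intron is 192 bases long, lies on the minus strand at chr4:3835292-3835483 and is the first of 3 introns of the coding transcript. Rps20 encodes a protein of the small ribosomal subunit, and its start codon stands directly before this intron. The first stop in frame came after 183 bases of the intron, close to its end. The intron kept by Rps16-202, also of a small-subunit protein gene, is 89 bases long (chr7:28352274-28352362, plus strand, intron 3 of 4), and a stop came after 29 bases. In Prelid1, whose protein carries phospholipid between mitochondrial membranes, the intron is 82 bases long (chr13:55324445-55324526, plus strand, intron 3 of 4). It held no stop in frame, but its length is not a multiple of 3, so the frame after it is shifted.

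Further introns between coding exons, in order of TPM, are shown by their splice sites, to let the donor and acceptor letters be compared. Capitals are intron bases, 6 at the donor and 20 at the acceptor, and the 3 lower case letters are exon.
Syne1-207 donor: agaGTATGT
Syne1-207 acceptor: CTCAATTTGGTTAATTTTAGtat
Stk25-204 donor: aagGTCCTG
Stk25-204 acceptor: ACCTATCCTGTATTGAGCAGctg
Mrps26-201 donor: acgGTGCGA
Mrps26-201 acceptor: CGGCGTCTTGCCCCTCGCAGgat
Camkv-202 donor: gctGTGAGT
Camkv-202 acceptor: CAGGGGCTGGTGTCCCTCAGggc
Trim28-203 donor: atgGTAAGT
Trim28-203 acceptor: TATGTTGTCTCTCCCTACAGgag

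These introns lie at chr10:5337334-5339224 (Syne1, minus strand), chr1:93626209-93627024 (Stk25, minus), chr2:130564228-130564307 (Mrps26, plus), chr9:107945865-107946078 (Camkv, plus) and chr7:13030376-13030454 (Trim28, plus). Syne1 encodes a giant protein that links the nucleus to the cytoskeleton, and Camkv a kinase-like protein of neurons. All 5 introns begin with GT and end with AG. Only Camkv and Trim28 carry GTGAG or GTAAG, the letters of a strong donor. The Camkv intron reached a stop after 1 base, and the Mrps26 intron held none in frame.

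Counted once each, 3657 introns were held whole by the well-expressed transcripts. GT and AG stood at the ends of 97.5% of them. GTAAG or GTGAG, read on the transcribed strand, began 48.3%, against 49.7% of the 6771 introns held whole only by retained_intron transcripts under the level. The introns were short. Their median length was 280 bases, against 292 for those 6771 and 1181 for all 54012 introns of coding transcripts in the same parent genes. Introns of at most 150 bases made up 28.9%, 30.6% and 12.6% of these sets. Short length was thus shared by annotated retained introns at low levels. Median GC content was 52.1% against 50.2%. Among 2866 introns placed in a coding transcript of at least 3 introns, 10.5% were the first and 7.36% the last, and 1 place per transcript taken evenly would give 11.5%. Introns held only under the level were the first in 11.0% and the last in 7.78%, so the low share of last introns was common to both sets.

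**Figure D1:**
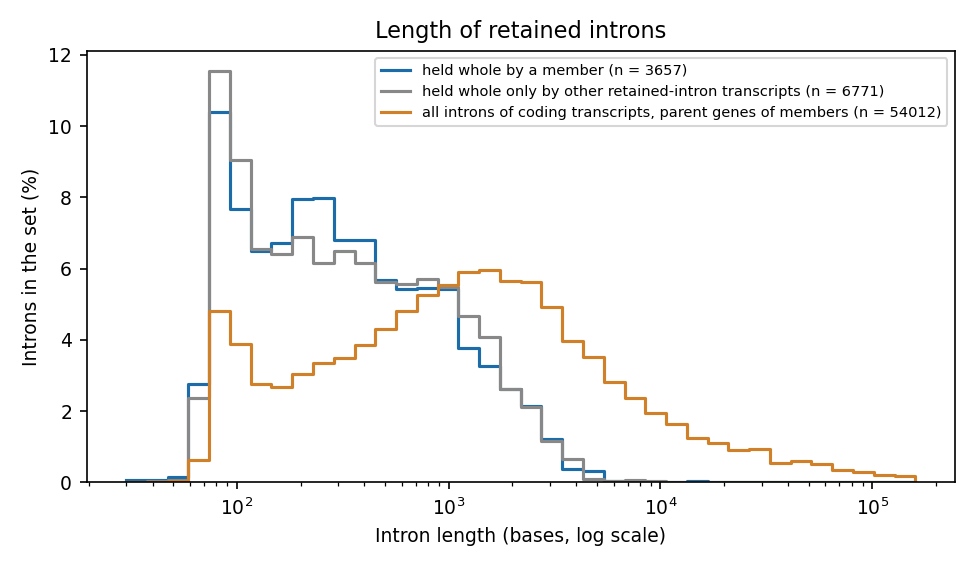
Length of introns on a log scale in bases, with the percentage of each set per bin, for introns held whole by well-expressed retained-intron transcripts, for those held only by other retained-intron transcripts, and for all introns of coding transcripts of the parent genes. The first 2 curves lie together, with medians of 280 and 292 bases, and the third is shifted to longer introns, with a median of 1181 bases.

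A stop codon in the frame of the upstream exon was found in 2442 of 2728 introns that lie between coding exons (89.5%), after a median of 36 bases. The share was 88.3% of 5233 such introns held only by transcripts under the level. Of the 286 introns without a stop, 80 had a length that is a multiple of 3, so that reading on would stay in frame, and 206 did not.

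Introns of the minor class were rare among them. These introns are removed by the U12 spliceosome and begin with GTATCCTT or ATATCCTT. With these letters at the intron start on the transcribed strand, 15 of the 3657 introns qualified (0.410%), in 12 genes, against 0.428% of the introns held only under the level. Of those 15, 3 began with AT and ended with AC, in Tcea2, Sms and E2f6. They are printed with the intron in capitals (8 bases at the donor, 20 at the acceptor).
Tcea2-206 donor: agtATATCCTT
Tcea2-206 acceptor: GGGTCCTTAAACACCTGCACgca
Sms-203 donor: gagATATCCTT
Sms-203 acceptor: TTCCTTAAACTGTTTCGGACatt
E2f6-202 donor: aagATATCCTT
E2f6-202 acceptor: GATCCTTGACCAGGTCTCACact

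These minor-class introns lie at chr2:181686247-181686597 (Tcea2, plus strand), chrX:157460417-157461175 (Sms, minus) and chr12:16820385-16822092 (E2f6, plus). Tcea2-206, of a transcription elongation factor gene, was at 4.0 TPM in replicate 1 and 3.29 in replicate 2. Sms-203, of the spermine synthase gene, was at 1.61 and 1.79 TPM. E2f6-202, of a transcriptional repressor gene, was at 1.51 and 1.68 TPM. All 3 were low, and the libraries differed by less than 1.5-fold in each.

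Most of the 5326 transcripts were near the threshold. In the RSEM tables the median was 2.35 TPM in replicate 1 and 2.13 in replicate 2, resting on a median of 67.6 and 61.5 expected counts. The mean of both libraries was at least 10 TPM in 316 transcripts, at least 50 in 31 and at least 100 in 8. Together they took 2.24% and 2.03% of the expected counts on annotated transcripts. The deposited upper bound of a transcript's TPM was a median of 2.07 times its lower bound in replicate 1 and 2.16 times in replicate 2, and the lower bound was at least 1 TPM in both libraries for 3021. Of all retained_intron transcripts, 1811 were listed at 0 in all 4 tables. Just inside the threshold, Arl14ep-203 was at 1.05 and 1.00 TPM (RSEM) and 1.55 and 1.5 (kallisto). Just outside it, Zfyve26-207 was at 1.52 and 1.90 (RSEM) and 0.999 and 1.12 (kallisto). In bulk tissue, fewer cells of a type and less RNA per cell cannot be told apart.

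The 20 highest by RSEM TPM held 9.28% of the summed level and included transcripts of ribosomal, mitochondrial and membrane protein genes. Itm2b-202, of a membrane protein gene, was the highest, at 189 TPM in replicate 1 and 155 in replicate 2 (172 ± 24.3, SD, n = 2). Its 935 bases (chr14:73362885-73368505, minus strand) held 78 private bases. Rps26-202 was at 158 and 152 TPM and held 187 private bases of 596. By RSEM replicate 1 was the higher library in both. By kallisto Rps26-202 was at 196 and 210 TPM, higher in replicate 2.

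Prkcb-208, of a protein kinase C gene, was at 126 and 150 TPM, higher in replicate 2, and held 297 private bases of 955 (chr7:122633448-122634402, plus strand). Rps20-201 was at 124 and 126 TPM, and both Rps16 transcripts differed by under 2 TPM between the libraries. Rps16-203 was at 137 and 138 TPM and Rps16-202 at 76.2 and 76.6. Reads of ribosomal protein genes may also come from their processed pseudogenes, so these levels are uncertain. Ctnnb1-215, of the beta-catenin gene, was at 84.4 and 94.3 TPM and is a single exon of 1292 bases with 93 private bases. Ank2-216, of the ankyrin B gene, was at 68.3 and 60.6 TPM with 1 private base in 2359. Almost all of that transcript thus lies in exons of Ank2 transcripts of other biotypes.

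**Figure D2:**
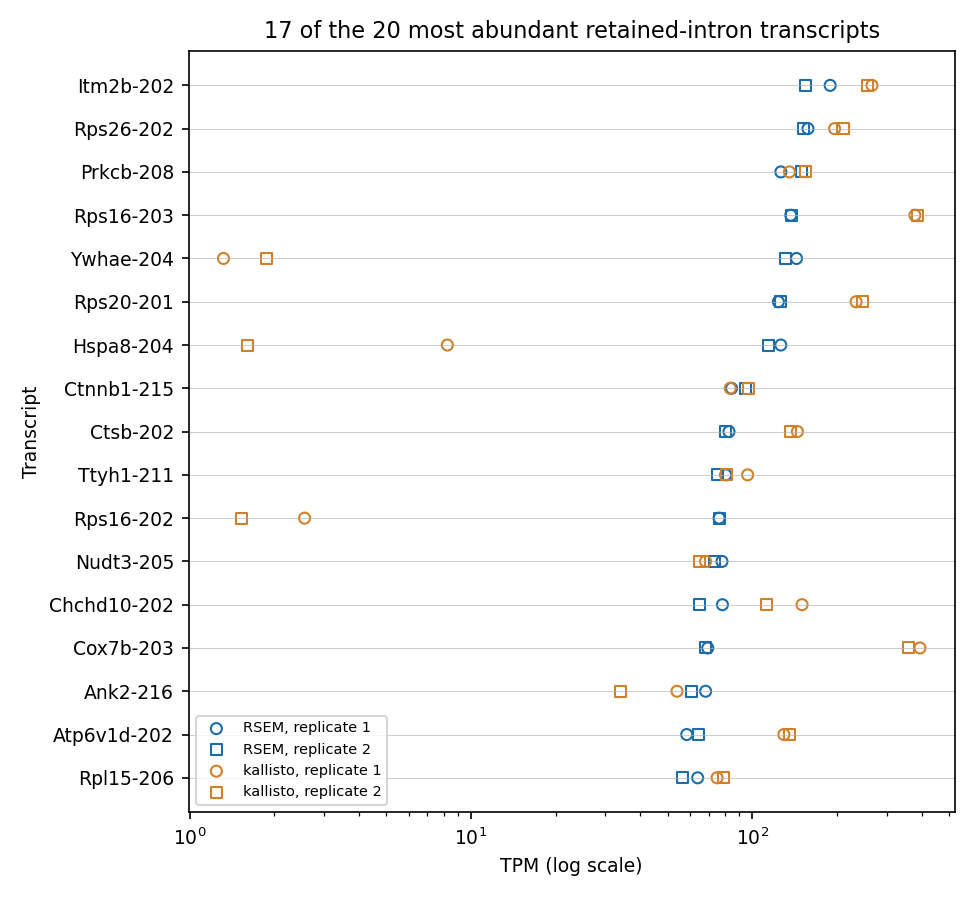
TPM of 17 of the 20 most abundant retained-intron transcripts (log axis), with each library of each quantification as 1 symbol. The libraries of 1 quantification lie close together for most transcripts, while Ywhae-204, Hspa8-204 and Rps16-202 are at 1.32 to 8.25 TPM in the kallisto tables and at 76.2 TPM or more in the RSEM tables.

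Transcripts with the most private sequence gave a different list. A choice made after the values were seen took those with a whole intron, at least 50% private bases and no other gene on the same strand. There were 610, with a median of 1.84 TPM and a highest mean of 30.1 TPM. Snrnp70-216, of the gene for the U1 spliceosome protein, led at 33.6 TPM in replicate 1 and 26.7 in replicate 2, with 2306 private bases of 4008. Gria2-204, of an AMPA-type glutamate receptor subunit, followed at 22.3 and 20.9 TPM with 2689 of 4799. Another receptor transcript, Grin2a-204, of an NMDA-type subunit, was at 13.5 and 15.5 TPM. Ogt-204, of the enzyme that adds N-acetylglucosamine to proteins and a known carrier of a detained intron, was at 19.0 and 11.3 TPM. Replicate 1 was higher in Snrnp70, Gria2 and Ogt and lower in Grin2a, and Ogt had the largest difference of the 4.

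The transcripts were mostly a minor share of their gene. IsoPct is the percent of the gene's TPM that a transcript takes. Its median was 6.98 in replicate 1 and 6.89 in replicate 2, with quartiles of 3.62 and 12.9 for the mean of both. IsoPct was under 5 in both libraries in 1727 transcripts, at least 10 in 1618, at least 25 in 362 and at least 50 in 70 (1.31%). Among protein_coding transcripts chosen by the same level, 42.4% reached 50, and among nonsense_mediated_decay transcripts 7.21%. The share from kallisto TPM had a median of 7.19. Of the 70, 41 also took at least 50% by kallisto. A retained-intron transcript was the most abundant one of a gene with a protein_coding transcript in 218 cases by RSEM and in 126 by both quantifications.

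**Figure D3:**
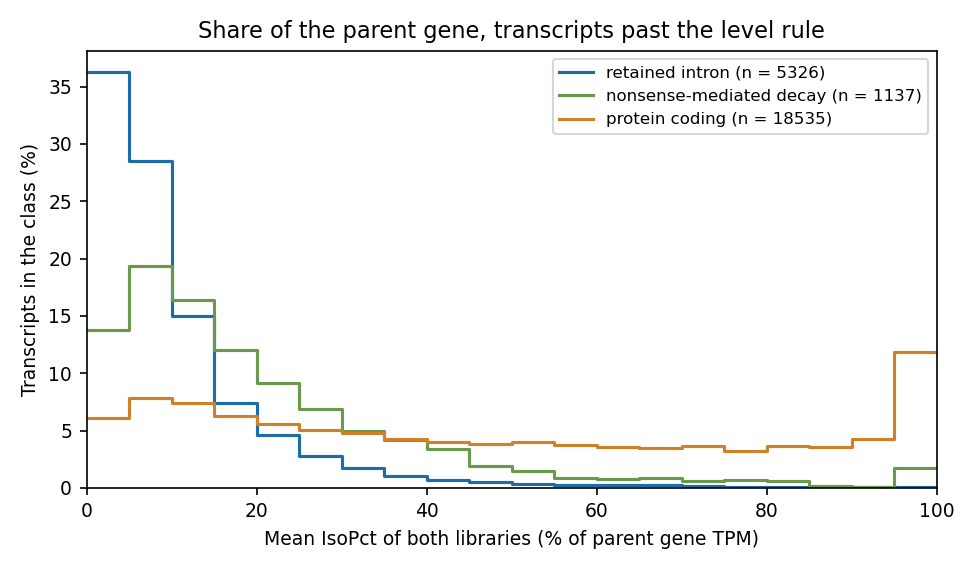
Percentage of transcripts per bin of mean IsoPct (percent of the parent gene's TPM, bins of 5), for 5326 retained-intron, 1137 nonsense-mediated decay and 18535 protein-coding transcripts past the same level. The retained-intron curve is highest below 10, and the protein-coding curve rises again above 95.

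Among genes that also had a protein_coding transcript, 4 of the 10 highest shares belonged to ribosomal genes of the cytosol and the mitochondrion. Rps26-202 took 97.5% of its gene in replicate 1 and 96.2% in replicate 2 by RSEM, but 47.4% and 51.4% by kallisto. Mrpl57-202, of a mitochondrial ribosome gene, took 91.8% and 92.3%, and its kallisto shares were 92.9% and 92.6%. Mrps26-201, from the same organelle's small subunit, took 91.8% and 89.8%, and 91.8% and 90.4% by kallisto. Prelid1-202 took 91.0% and 89.6% by RSEM and 77.0% and 75.2% by kallisto. Rps20-201 took 82.2% and 85.2% by RSEM and 53.6% and 57.1% by kallisto. In these examples Mrpl57 and Mrps26 had like shares in both quantifications, and Rps26, Rps20 and Prelid1 had lower shares by kallisto. A2ml1-203, at 100% and 96.6% the highest of the 10, and Ripply2-202, Npff-202, Olfml3-202 and 9030025P20Rik-202 completed the 10, each at under 5 TPM by RSEM. Ripply2-202 was at 100% and 69.4% on 39 and 23 expected counts.

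The median absolute difference in IsoPct between the libraries was 1.13 points, beside a median share of 7.03, and 9 transcripts differed by over 20 points. By level, 79.2% of the transcripts were within 1.5-fold between the libraries. That share was 85.2% for all 28340 transcripts of any biotype at the same level and 88.2% for the protein_coding ones. Counts were not matched in this comparison. At like summed counts of both libraries, fewer of these transcripts than of the other transcripts at the level were 2-fold apart. The shares were 4.99% against 6.71% under 50 counts, 5.61% against 8.40% at 50 to 200, and 2.18% against 2.44% from 200 up.

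A gene could carry several of them. The transcripts numbered 1 in 2036 genes, 2 in 730 and 3 or more in 495. Snrnp70 and Tia1, a regulator of splicing and translation, had 9 each. The 9 of Snrnp70 summed to 59.0% of the gene in replicate 1 and 60.7% in replicate 2 by RSEM, and to 41.7% and 40.1% by kallisto, and they were all 9 annotated. Those of Tia1 summed to 54.0% and 49.1% by RSEM and to 55.3% and 47.7% by kallisto, with 14 annotated. Ank2, Pcyt2, Ptprs and Sptan1 had 8 each, and their sums ranged from 11.3% and 11.8% in Sptan1, a spectrin gene, to 45.9% and 48.3% in Pcyt2, an enzyme of phosphatidylethanolamine synthesis. In 115 of the 3225 coding genes (3.57%) the sum reached 50% in both libraries. Clk4, a kinase of splicing factors, had 6 that summed to 62.6% and 63.4% by RSEM and to 57.0% and 56.0% by kallisto. Taf10, a transcription factor subunit, had 3 that summed to 93.3% and 92.5%.

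The level of the gene went with both the presence and the share of such a transcript. Of 7584 genes at 1 TPM or more in both libraries with an annotated retained_intron transcript, 43.0% had a well-expressed one. The percentage was 11.2 at a gene level of 1 to 10 TPM, 50.7 at 10 to 50, 74.9 at 50 to 200 and 86.5 from 200 up. Median IsoPct of the transcripts over the same steps was 24.2, 9.01, 3.43 and 1.23. A fixed minimum of 1 TPM is a larger part of a low gene, so the rule itself sets part of both series.

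Lists of parent genes were therefore read beside their gene level. By genes, every list by function was above the 43.0% of all genes, from 66.7% (hnRNP and PTB proteins, cytosolic ribosomal proteins) to 100%. At a gene level of 50 to 200 TPM the share over all genes was 74.9%. The number of annotated retained_intron transcripts per gene was not matched. SR proteins and partners, which help the spliceosome choose sites, had a well-expressed transcript in 24 of 25 detected genes with an annotated one (96.0%). Of their 104 annotated transcripts, 64 (61.5%) reached the level, against 24.4% of all, which include transcripts of genes not detected. Every list by function was above 24.4%, from 36.2% (snoRNA host genes) to 68.2% (known detained-intron genes). The median level of the SR list's genes was 63.9 TPM. Their median summed share per gene was 20.2%, against 6.41% over all genes at 50 to 200 TPM. The summed share was above the median of all parent genes in the same step of gene level in 21 of the 24, a count added after the values were seen. Rsrp1-204 was at 52.9 and 54.4 TPM and took 50.6% and 54.2% of its gene, but it held only 13 private bases. Srsf5-212 was at 34.5 TPM in replicate 1 and 12.2 in replicate 2, with kallisto values of 51.3 and 21.1. Srrm2-209, of a scaffold protein of the spliceosome, was at 32.6 and 21.2 TPM.

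Kinases of SR proteins showed 20 of 37 annotated transcripts, from 7 of 9 genes, with a median summed share of 28% at a median gene level of 35.0 TPM. Over all genes at 10 to 50 TPM that share was 13.3%, and 5 of the 7 were above the median of their own step. Clk4-207 was at 13.1 and 6.79 TPM and Clk1-204 at 9.54 and 7.48. Both were higher in replicate 1. The known carriers of detained introns, a list that holds Clk1 and Clk4 too, had 15 of 22 annotated transcripts in 5 of 5 genes. Of those 15, 5 held a whole intron, with Clk1-204 among them and Clk4-207 not. The hnRNP and PTB proteins had 38 of 73, from 14 of 21 genes, led by Hnrnpk-215 at 41.8 and 43.0 TPM with 33 private bases. DEAD-box and related helicases had 27 of 60, from 15 of 18 genes. Ddx39b-204, of an RNA export helicase gene, was at 26.9 and 25.8 TPM and took 26.6% and 27.9% of its gene.

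Synaptic genes differed among the lists. Vesicle and release genes had 38 of 64 annotated transcripts in 24 of 31 genes, with a median IsoPct of 1.73. Their median gene level was 123 TPM, and the summed share was above the median of the gene's step in 7 of the 24. Dnm1-211, of the neuronal dynamin gene, was at 26.2 and 30.04 TPM, and Bin1-204 at 16.7 and 13.6. Postsynaptic scaffold and signalling genes had 38 of 82 in 19 of 24 genes, with a median of 1.96, and 8 of the 19 were above the median of their step. Shank1-206, of a scaffold gene of excitatory synapses, was at 32.3 and 37.6 TPM and took 13.2% and 13.5%. Neurotransmitter receptors had 21 of 35 in 13 of 15 genes (median 3.73), and voltage-gated channels 51 of 120 in 31 of 44 genes (median 5.78). For their level the summed shares were not small, since 7 of 13 receptor genes and 16 of 31 channel genes were above the median of their step. Cacna1e-206, of a calcium channel gene, held 2336 private bases and was at 9.69 and 8.57 TPM.

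Ribosomal, mitochondrial and cytoskeletal genes are highly expressed, and the median IsoPct was low in each list. Cytosolic ribosomal protein genes had 70 of 179 annotated transcripts in 44 of 66 genes, with a median IsoPct of 1.62 that ranged from 0.190 to 96.9. Their median gene level was 196 TPM, and 15 of the 44 were above the median share of their step. Nuclear oxidative phosphorylation genes had 59 of 112 in 37 of 52 genes, with a median of 1.79 at a gene level of 124 TPM, and 11 of the 37 were above the median of their step. Cox7b-203, of a cytochrome oxidase subunit, was at 69.5 and 68.2 TPM and took 47.6% and 51.6% by RSEM, but was at 394 and 359 TPM and took 99.6% and 99.3% by kallisto. Calcium-binding and cytoskeleton genes had 25 of 38 in 15 of 15 genes, with a median of 1.04 beside 1.23 over all transcripts in genes from 200 TPM up. Their median gene level was 307 TPM, and 5 of the 15 were above the median of their step. Actb-205 held 391 private bases of the beta-actin gene and was at 16.9 and 12.7 TPM, 0.980% and 0.740% of it.

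**Figure D4:**
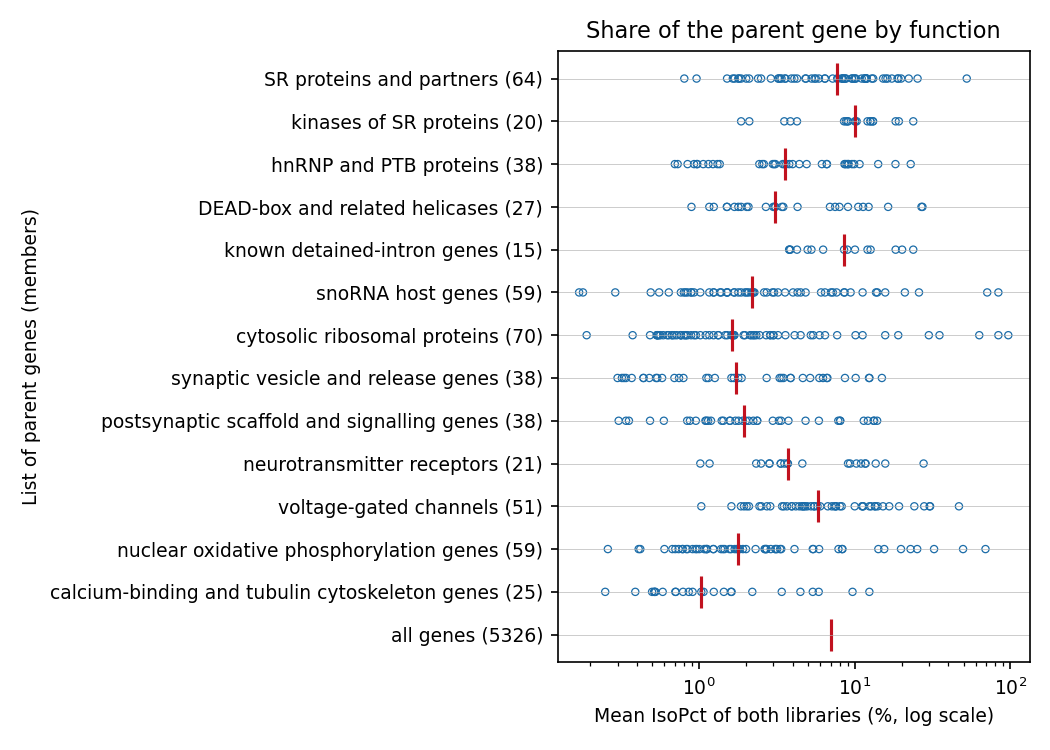
Mean IsoPct of both libraries (percent of the parent gene's TPM, log axis) for each well-expressed retained-intron transcript (open circles) of 13 lists of parent genes, with the list's median as a bar and the number of transcripts in brackets. The bar of all 5326 transcripts is at 7.03, SR proteins and their kinases lie at 7.75 and 10.1, and the cytoskeleton list is lowest at 1.04.

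Small RNA genes overlapped some of the transcripts. An exon overlapped another annotated gene, by any number of bases, on the same strand in 298 (5.60%) and on the opposite strand in 613. A small RNA gene on the same strand was overlapped in 116 (2.18%), against 1.24% of the transcripts under the level. These were snoRNA genes in 50 and miRNA genes in 62. SnoRNAs guide the chemical modification of other RNAs and are cut from introns of host genes. Host genes had 59 of 163 annotated transcripts in 26 of 32 genes. Ncl-202, of the nucleolin gene, was at 48.0 and 51.6 TPM and took 71.0% and 70.9% of its gene. Rpl13a-213 overlapped Snord33 and was at 50.3 and 57.8 TPM. The labels and files do not state whether strand was used, so reads of nested and opposite genes cannot be told apart from those of the transcript.

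The libraries differed little. The median log2 ratio of replicate 2 to replicate 1 was -0.14 over the 5326 transcripts by RSEM TPM, -0.09 over all 28340 transcripts at the same level and -0.08 over the protein_coding ones. Replicate 2 was lower in 64.3% of them and in 62.3% of all. By RSEM, 63 (1.18%) were at least 2-fold higher in replicate 2, beside 1.35% of all 28340, and 166 (3.12%) were at least 2-fold lower, beside 2.54%. In both quantifications 21 (0.394%) were 2-fold higher, beside 0.328%, and 63 (1.18%) were 2-fold lower, beside 0.801%. The background, which includes these transcripts, was above the first of these shares and below the others. With 1 library on each side no test was possible.

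Of the 10 widest differences by expected counts, 8 had the same direction in the kallisto tables, 3 of them at 2-fold or more. All 10 were smaller there, which follows in part from choosing them by their RSEM counts. Kif1b-204, of a motor protein gene for axonal transport, had 25 counts in replicate 1 and 195 in replicate 2, a ratio of 8.09 per total count (5.22 to 12.6, exact 95% binomial interval, counting error only). Its TPM was 2.20 and 17.6 by RSEM but 46.4 and 35.5 by kallisto. C2cd2l-205 was at 2.69 and 14.3 TPM by RSEM and at 11.7 and 24.6 by kallisto. In the other direction, Sqstm1-203, of an autophagy receptor gene, was at 5.44 and 1.10 TPM by RSEM, 4.88-fold lower by counts (2.62 to 10.03), and at 9.63 and 5.56 by kallisto. Cuta-207 was at 5.61 and 1.20 TPM by RSEM and at 32.6 and 20.9 by kallisto. The direction was the same in both for C2cd2l, Sqstm1 and Cuta, and opposite for Kif1b. The deposited lower bound of TPM in replicate 1 was 1.3e-04 for Kif1b-204 and 2.4e-04 for C2cd2l-205. In replicate 2 it was 0.059 for Sqstm1-203 and 1.3e-04 for Cuta-207.

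Transcripts of splicing genes were mostly lower in replicate 2, as were those of most lists and of all parent genes. Over all 5326 transcripts 64.3% were lower, and 73.3% of parent genes were lower (median log2 ratio -0.09). Of the 64 transcripts of SR proteins and partners, 51 were lower in replicate 2 (79.7%, median log2 ratio -0.23), and 22 of the 24 parent genes were lower (median -0.17). For the kinases 14 of 20 transcripts were lower (70.0%, median -0.26), as were 6 of 7 genes (median -0.45). The hnRNP list had 24 of 38 lower (median -0.19), and the helicases 16 of 27 (median -0.02). Outside splicing, 21 of 25 transcripts of the calcium-binding and cytoskeleton list were lower (median -0.18), and 27 of 38 of the vesicle list (median -0.26). The kinases thus stood near the share of all transcripts, and the SR list was above it, as was the cytoskeleton list. The absolute change in IsoPct had a median of 0.870 points in the SR list and 2.66 in the kinases, beside 1.13 over all. Srsf5-212 took 22.4% of its gene in replicate 1 and 8.06% in replicate 2, and Clk4-207 was at 27.7% and 19.9%.

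The quantifications differed more than the libraries. The length used was reduced by 99 bases for every one of these transcripts in RSEM. In kallisto the median reduction was 343 bases in replicate 1 and 346 in replicate 2. RSEM TPM was lower for these transcripts, with a median log2 ratio of -0.65 and of -0.59 over all 28340, but this turned when both were rescaled over nuclear transcripts of protein-coding genes. Rescaling moved the ratio by 0.72 in each library and left the medians at 0.08 and 0.07, beside 0.13 in both over all transcripts. RSEM was at least 2-fold above kallisto in both libraries for 73 (1.37%), beside 1.67% of all, and at least 2-fold below it for 918 (17.2%), beside 16.9%. After rescaling the numbers were 226 (4.24%) above, beside 4.86%, and 317 (5.95%) below, beside 6.39%. Within 2-fold in both libraries were 3554 (66.7%), against 70.4% of all. At least 10-fold apart in the same direction in both were 79, near the share of all, with 424 of 28340. The level rule used both quantifications, so transcripts that reached 1 TPM in only 1 of them were left out. These shares therefore describe agreement within the chosen transcripts and test nothing. Agreement went with private sequence: 49.8% were within 2-fold among transcripts with under 100 private bases, 55.3% with 100 to 499 and 84.7% with 500 or more. Those groups also differed in median length (685, 742 and 2575 bases) and in median RSEM TPM (3.7, 2.4 and 1.88). The rule kept only values of at least 1 TPM, so a transcript under 2 TPM by RSEM could not be over 2-fold above kallisto. The part of private sequence, length and level in this agreement was not tested.

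Among the 5 widest gaps in each direction, 1 gene, Ywhae, had a transcript on both sides, and the others came from different genes. Ywhae-204, of a 14-3-3 protein gene, was at 144 and 131 TPM by RSEM and at 1.32 and 1.87 by kallisto. Ywhae-205 was at 2.13 and 2.30 by RSEM and at 387 and 318 by kallisto. Rps16-202 was at 76.2 and 76.6 by RSEM and at 2.56 and 1.53 by kallisto. Rps27-209 was at 2.16 and 1.57 by RSEM and at 518 and 479.7 by kallisto, where its coding transcript Rps27-201 was listed at 0. The whole introns printed for Rps20-201 and Prelid1-202 belong to transcripts that both quantifications placed above 50 TPM, and that of Rps16-202 does not.

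**Figure D5:**
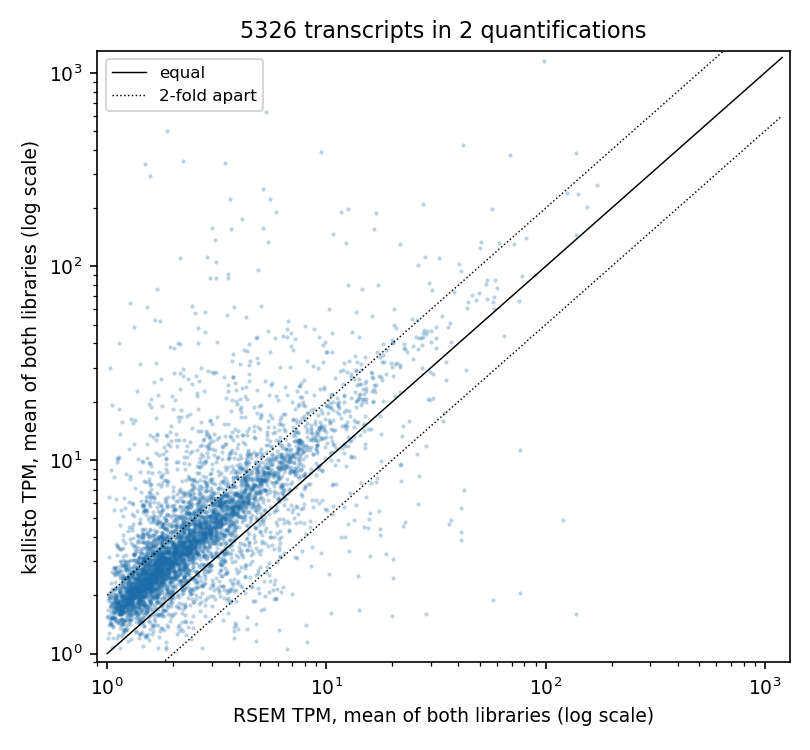
RSEM against kallisto TPM (mean of both libraries, log axes) for 5326 retained-intron transcripts, with lines at equal values and 2-fold apart. Most points lie above the line of equal values, between 1 and 10 TPM, and a scatter of transcripts lies far above it, such as Rps27-209 at 518 and 479.7 TPM in kallisto. After rescaling over nuclear coding genes the median ratio changes sign, to 0.08 and 0.07 on the log2 scale.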

How the data were processed

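The authors quantified each library on mm10 with the GENCODE M21 annotation, per the notes deposited with the files. Per the file headers, one deposited transcript table per library has the RSEM layout and gives expected counts, TPM, IsoPct (percent of the gene's TPM) and lower and upper bounds of TPM (a signal range whose level is not stated). The other deposited table has the kallisto layout and gives estimated counts and TPM. No label or header names the aligner, the tool versions or the use of strand. The assembly is C57BL/6J sequence, and the alleles of the hybrid were not separated.

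Retained_intron transcripts at 1 TPM or more in all 4 tables were taken, and the annotation's exons were compared within each gene to find whole introns and private bases. Sequences were read from the annotation's transcripts. Scripts ran in Python 3.11.15 with pandas 2.3.3, numpy 2.4.6 and scipy 1.17.1, and were tested on simulated data. The members and lists were chosen with earlier results of these data known. Named were the 20 highest by TPM, the 10 highest by IsoPct, the 5 widest ratios in each direction between libraries and between quantifications, the 3 nearest to the threshold on each side, and up to 4 examples per list, of which the text prints those it needs; some items under this rule are not reported here. Kinases of the Rps6k family and antisense channel genes were left out of the lists. No test was run, since the design has 1 group. Depth was 33301012 and 32721958 expected counts, and the few counts behind most transcripts limit their precision.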

Additional observations from a re-analysis of the deposited data

How the results depend on the processing

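The number of transcripts was 8966 at 0.5 TPM, 2377 at 2 TPM and 632 at 5 TPM in all 4 tables, 9030 in the kallisto tables alone and 6415 in the RSEM tables alone. It was 6304 to 7054 in a single library, and 5262 with at least 10 expected counts in each. Median IsoPct was 7.19 by kallisto TPM, 3.48 by expected counts, 6.71 to 6.82 with members chosen in a single library and 16.2 at 5 TPM. Over the 610 transcripts with a whole intron and mostly private bases, a set added after seeing the data, it was 5.11. With a limit of 1.5-fold, 1419 transcripts were that close between the quantifications. With both rescaled over nuclear coding genes, which moved the ratio by 0.72 on the log2 scale, 4270 were within 2-fold and the median ratio was 0.08 and 0.07 in the libraries. The other alternatives, for the members with at least 50% of their gene, the ratio of the libraries, located introns and overlapping genes, stayed within 1.5 times or 0.1 of the values given. No paired analysis was possible because the series has 1 group and no test was run. Counting depth is among the limits for most members, at a median of 67.6 and 61.5 counts. Its part beside the division of reads of shared exons was not tested.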
